A study of Homo sapiens with 24 samples.

Results

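The proteasome genes described here were a list of 48 human genes: the subunits of the 20S core, the immunoproteasome, the 19S regulator and the activators, and the factors that assemble them. They were matched by symbol, and 44 of the 48 had a probe that passed the filter on dim signals, among 13344 genes tested. PSMA7, PSMC5, PSMD7 and PSMD13 were not analysed here. The measured genes were 6 of 7 20S alpha subunits, 7 of 7 beta subunits, 3 of 3 immunoproteasome subunits, 5 of 6 19S ATPases, 12 of 14 19S non-ATPase subunits, 4 of 4 activators and 7 of 7 assembly factors. The chosen probe was above background on all 24 arrays for 41 of the 44. The exceptions were PSMB8, PSMB9 and PSMD9, which were above background on 12, 11 and 13 arrays.

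The study treated PC3 and LNCaP, established human prostate cancer cell lines, with Siomycin A or with its solvent DMSO for 24 h or 48 h. LNCaP responds to androgen and carries the androgen receptor, whereas PC3 grows without it. Siomycin A is a thiopeptide antibiotic known as an inhibitor of the transcription factor FOXM1, and thiopeptides of this kind are also known to inhibit the proteasome. The 8 groups, PC3 and LNCaP with DMSO or Siomycin A at each time, held 3 arrays each, on which total RNA was measured with Illumina bead arrays. The protocol gives the Siomycin A dose as 0.5 microM and the sample titles as 5 microM, so the dose is not settled. Whether the 3 arrays of a group hold RNA of separate cultures is not stated. The p-values rest on the differences among the arrays within a group, pooled over the 8 groups, and these may be technical.

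The 26S proteasome degrades proteins that carry ubiquitin chains. Its 20S core is a barrel of alpha rings around beta rings whose beta subunits cut the protein, and the 19S regulator binds ubiquitin, removes it and unfolds the substrate with a ring of ATPases. When proteasome activity is limited in human cells, the transcription factor NFE2L1, also called NRF1, is known to escape degradation and to raise the proteasome genes as a group through antioxidant response elements in their promoters. Interferon instead induces the immunoproteasome subunits PSMB8, PSMB9 and PSMB10, which replace the catalytic subunits of the standard core, and the activator genes PSME1 and PSME2.

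Mean probe intensity ran from 314.4 to 498.8 over the 24 arrays, and 17010 to 20101 of 47318 probes were above background. Replicate 3 of PC3 with Siomycin A at 48 h had the lowest intensity, 314.4. For the 44 genes, the median distance of an array from the mean of the other arrays of its group was 0.16 (log2) for replicates 1 and 2 of LNCaP with Siomycin A at 24 h and between 0.05 and 0.10 for the other 22 arrays. The line markers separated LNCaP from PC3 for 7 of 8 LNCaP markers and 10 of 10 PC3 markers. A level below is a log2 intensity after background correction and quantile normalization, and it is compared only within a gene. An error after a level is the SD over 3 arrays, and an error after a log2 difference is limma's SE. A gene was called where limma's p-value, adjusted over all 13344 genes by the method of Benjamini and Hochberg, was under 0.05.

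In PC3, most proteasome genes rose with Siomycin A at both times. At 24 h 29 of the 44 rose and 5 fell, while 11.04% of all genes tested rose and 11.9% fell. At 48 h 28 rose and 7 fell, while 19.5% of all genes rose and 26.3% fell. Quantile normalization was replaced in turn by centring each array on the median of the kept probes (median centring) or of all probes (all-probe centring). All-probe centring turned the count of all genes at 48 h in PC3 from 2598 higher and 3507 lower to 844 higher and 4511 lower. The median log2 fold change of the proteasome genes was 0.48 at 24 h and 0.36 at 48 h, beside 0.00 and -0.04 over all genes.

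In LNCaP, 11 of the 44 rose and 4 fell at 24 h, while 10.5% of all genes rose and 10.4% fell. That count of all genes, 1396 higher and 1383 lower, became 859 higher and 1540 lower with median centring. At 48 h 2 rose and 20 fell, while 18.96% of all genes rose and 18.4% fell. The median log2 fold change of the proteasome genes in LNCaP was 0.17 at 24 h and -0.20 at 48 h, beside 0.02 and 0.01 over all genes. Both LNCaP counts moved with the processing. At 48 h all-probe centring left 9 calls (0 higher, 9 lower). The count at 24 h was 2 (1 higher, 1 lower) when only the 6 arrays of that comparison were fitted, 9 with median centring, 4 with all-probe centring, and 22 (18 higher, 4 lower) without replicate 3 of PC3 with Siomycin A at 48 h and replicate 1 of LNCaP with Siomycin A at 24 h. Since RNA of whole cultures was measured, fewer cells of a kind and less RNA per cell cannot be told apart.

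**Figure D1:**
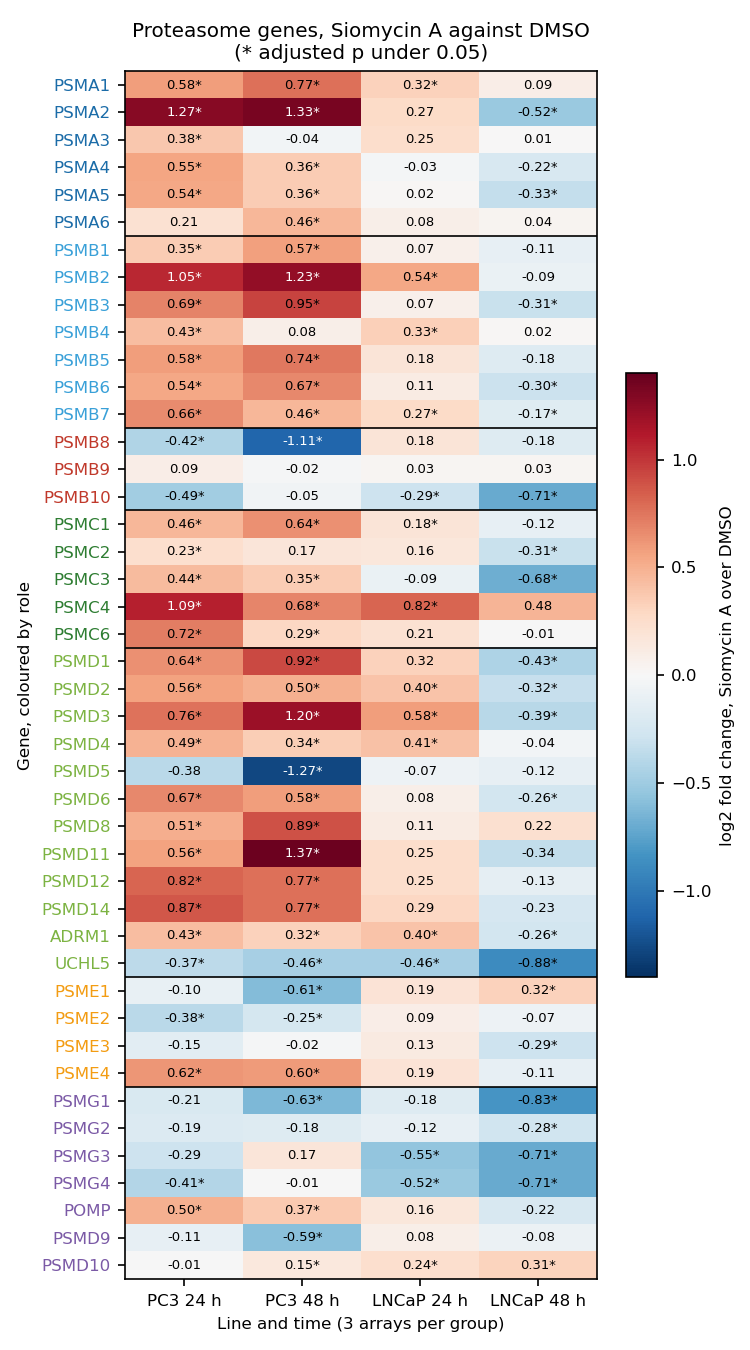
Log2 fold change of Siomycin A over DMSO for the 44 measured proteasome genes (rows, coloured by role) in the 4 comparisons of 3 against 3 arrays (columns), with a star where the adjusted p was under 0.05. The PC3 columns are mostly red in the subunits of the 20S core and the 19S regulator, and the LNCaP 48 h column is mostly blue, with 20 genes lower and 2 higher.

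By its chosen probe, no gene of the 44 rose in all 4 comparisons, a share similar to the 1.75% of all genes. A dimmer second probe of PSMA1, with a mean level of 9.83, was called higher in all 4. It gave 0.33 ± 0.09 in LNCaP at 48 h (limma's adjusted p = 0.0065), where the chosen probe was not called. While 5.37% of all genes rose in at least 3, the 10 of the 44 that did so were PSMA1, PSMB2, PSMB7, PSMC1, PSMC4, PSMD2, PSMD3, PSMD4, ADRM1 and PSMD10. Another 18 rose in 2, and 4 in 1, while 10.3% of all genes rose in 2 and 21.4% in 1. While 62.9% of all genes rose in none, the 12 of the 44 that did so were PSMB8, PSMB9, PSMB10, PSMD5, UCHL5, PSME2, PSME3, PSMG1, PSMG2, PSMG3, PSMG4 and PSMD9. All 10 genes that rose in at least 3 comparisons needed their LNCaP 24 h call. Of the 15 LNCaP 24 h calls, only 2 held in every alternative way of processing. That of PSMC1 (0.18 ± 0.06, adjusted p = 0.041) was lost in 11 alternatives, and the PC3 48 h call of PSMD10 in 8. All 3 Siomycin A arrays lay above all 3 DMSO arrays for 30 of the 44 in PC3 at 24 h, 31 in PC3 at 48 h, 14 in LNCaP at 24 h and 5 in LNCaP at 48 h. Over all genes the same shares were 20.5%, 23.2%, 15.6% and 25.8%.

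**Figure D2:**
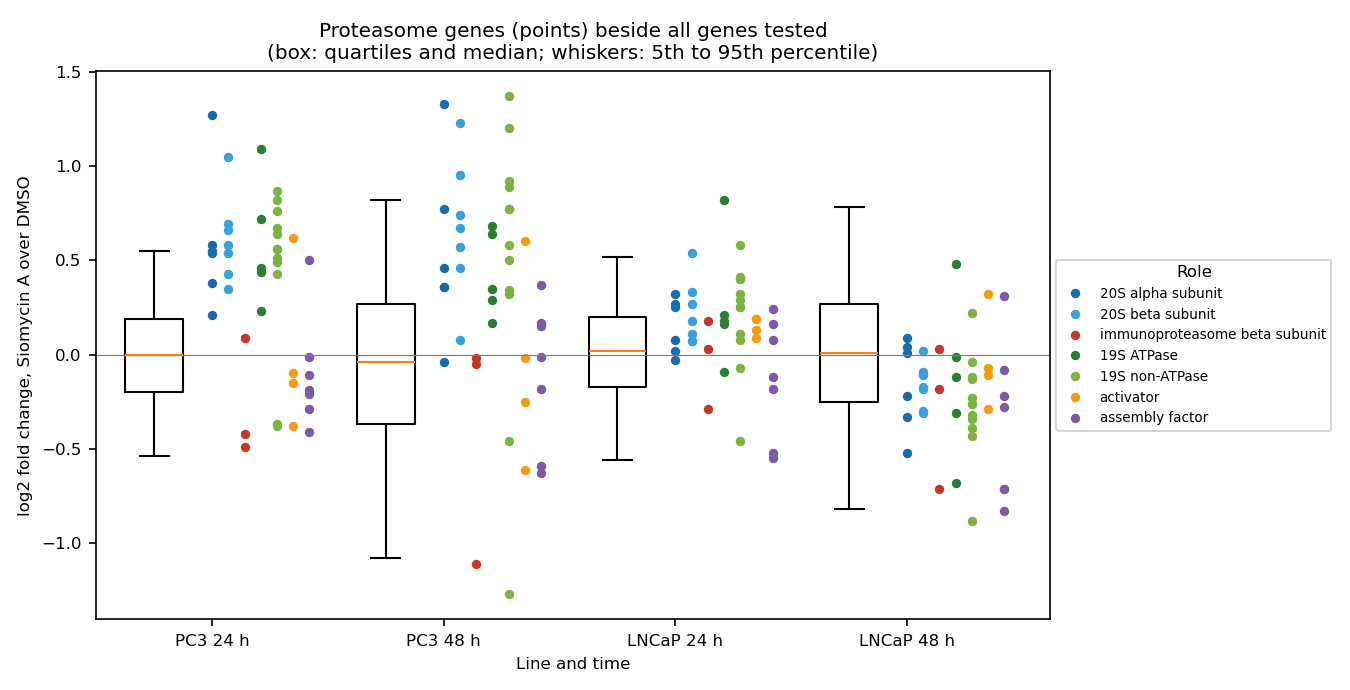
Log2 fold change of Siomycin A over DMSO for each proteasome gene (points, coloured by role) beside the median, quartiles and 5th to 95th percentiles of all 13344 genes (boxes and whiskers) in each line and time. In PC3 at 24 h the points of the 20S and 19S subunits lie mostly above the upper quartile of 0.19, whereas immunoproteasome, activator and assembly genes lie mostly below 0.

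The promoters of these genes were read because the antioxidant response element and the interferon element are known entry points of regulators of the proteasome genes. RefSeq windows (GRCh38.p14) reaching 250 bases before and 50 after a gene's start were found for 42 of the 48 genes and searched on both strands for fixed letters. The letters TGACNNNGC of the antioxidant response element were in a window of 17 of the 42 genes (40.5%), against 16.1% of all genes with a window. The letters of the interferon element, GAAA, any 2 bases and GAAA again, were in 7 of the 42 (16.7%), against 4.38% of all genes, and the CCAAT box was in 20 of the 42 (47.6%), against 39.7%. The 3 sets of letters were searched separately, so their matches may overlap, and a match does not show a site in use. The stretches below are not all the matches and were chosen after the values had been seen. PSMA4 and PSMB4, which have the interferon letters before their starts and rose in PC3 at 24 h, were left out. Capitals mark the match in each stretch. The first 4 hold the antioxidant letters before genes that rose in PC3, the fifth holds them before PSMD5, which fell there at 48 h, and the last 3 hold the interferon letters before genes that fell in PC3 at 24 h. Their positions, each read on the gene's strand, were chr17:38752607-38752675 (plus) for PSMB3, chr17:39980740-39980806 (plus) for PSMD3, chr17:67366704-67366772 (minus) for PSMD12, chr20:62302729-62302797 (plus) for ADRM1, chr9:120843018-120843086 (minus) for PSMD5, chr16:67936851-67936901 (minus) for PSMB10, chr14:24146611-24146668 (minus) for PSME2 and chr6:3258884-3258946 (plus) for PSMG4.
PSMB3: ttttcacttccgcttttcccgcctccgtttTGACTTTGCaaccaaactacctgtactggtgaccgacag
PSMD3: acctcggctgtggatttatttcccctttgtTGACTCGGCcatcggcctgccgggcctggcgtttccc
PSMD12: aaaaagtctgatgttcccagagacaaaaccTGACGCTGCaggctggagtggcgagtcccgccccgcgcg
ADRM1: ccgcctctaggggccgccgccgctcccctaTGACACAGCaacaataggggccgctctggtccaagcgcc
PSMD5: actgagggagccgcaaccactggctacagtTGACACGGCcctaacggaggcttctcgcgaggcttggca
PSMB10: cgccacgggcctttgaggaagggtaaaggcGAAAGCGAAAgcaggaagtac
PSME2: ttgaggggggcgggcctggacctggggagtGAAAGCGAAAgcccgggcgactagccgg
PSMG4: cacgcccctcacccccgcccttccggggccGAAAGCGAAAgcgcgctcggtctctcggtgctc

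Of the 39 measured genes with a window, the 16 with the antioxidant letters had a median log2 fold change of 0.26 in PC3 at 24 h, and 8 rose and 2 fell. The 23 without them had a median of 0.50, and 17 rose and 3 fell. The 7 with the interferon letters had a median of -0.38, and 2 rose and 4 fell. The 32 without the interferon letters had a median of 0.53, and 23 rose and 1 fell. In PC3 at 48 h the genes with the antioxidant letters had a median of 0.15, and 8 rose and 6 fell. Those without the antioxidant letters had a median of 0.37 there, and 16 rose and 1 fell. For the interferon letters the medians with and without them were -0.05 and 0.48 in PC3 at 48 h, and -0.18 and -0.23 in LNCaP at 48 h.

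Among the alpha subunits of the 20S core, which form the outer rings and gate the barrel, 5 of 6 rose in PC3 at each time, with medians of 0.55 and 0.41. PSMA2 had the highest fold change of the 44 in PC3 at 24 h. Its level was 8.44, 8.27 and 8.28 on the PC3 DMSO arrays at 24 h and 9.60, 9.59 and 9.60 on the Siomycin A arrays. At 48 h it was 7.23, 7.57 and 7.47 with DMSO and 8.68, 8.75 and 8.84 with Siomycin A. The treated arrays lay above the controls without overlap. The log2 fold change was 1.27 ± 0.11 at 24 h, with an adjusted p of 7.6e-08, and 1.33 ± 0.11 at 48 h, with 5.9e-09.

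In LNCaP PSMA2 read 8.74, 8.52 and 8.68 with DMSO and 8.68, 9.19 and 8.89 with Siomycin A at 24 h. At 48 h it read 8.71, 8.49 and 8.66 with DMSO and 8.13, 8.13 and 8.04 with Siomycin A. The arrays overlapped at 24 h (0.27 ± 0.11, adjusted p = 0.089), and at 48 h all treated arrays were lower (-0.52 ± 0.11, adjusted p = 0.00082). Of the other alpha subunits, PSMA1 rose in LNCaP at 24 h (0.32 ± 0.07), and PSMA4 and PSMA5 fell there at 48 h (-0.22 ± 0.07 and -0.33 ± 0.08). The LNCaP 48 h call of PSMA4 was lost in 5 alternatives. PSMA6 was 0.21 ± 0.08 (adjusted p = 0.084) in PC3 at 24 h and rose at 48 h (0.46 ± 0.08). PSMA3 rose in PC3 at 24 h (0.38 ± 0.11), a call lost in 6 alternatives, and was -0.04 ± 0.11 at 48 h (adjusted p = 0.8). Each of these genes had a dimmer second probe. That of PSMA6, with a mean level of 11.62, was called higher in PC3 at 24 h (0.43 ± 0.10). That of PSMA3, with a mean level of 10.64, was called higher in PC3 at 48 h (0.42 ± 0.13). The dimmer PSMA3 probe also rose in LNCaP at 24 h (0.50 ± 0.13), while the brighter one was not called (0.25 ± 0.11). The missing calls of PSMA6 and PSMA3 therefore depended on the probe.

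All 7 beta subunits of the standard core rose in PC3 at 24 h (median 0.58) and 6 of 7 at 48 h (median 0.67), PSMB4 being the exception with 0.08 ± 0.08. PSMB2, a subunit without a cutting site, read 11.37, 11.63 and 11.59 with DMSO and 12.65, 12.47 and 12.62 with Siomycin A in PC3 at 24 h. At 48 h its PC3 levels were 11.17, 11.28 and 11.14 with DMSO and 12.44, 12.43 and 12.41 with Siomycin A. Every treated array was higher than every control, by 1.05 ± 0.09 (adjusted p = 7e-08) and 1.23 ± 0.09 (adjusted p = 1.1e-09).

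In LNCaP PSMB2 read 11.40, 11.45 and 11.35 with DMSO and 12.16, 11.89 and 11.76 with Siomycin A at 24 h, a rise of 0.54 ± 0.09 (adjusted p = 0.00019). At 48 h the LNCaP levels were 11.42, 11.45 and 11.32 with DMSO and 11.30, 11.33 and 11.29 with Siomycin A, which overlapped (-0.09 ± 0.09, adjusted p = 0.48). The LNCaP 24 h call was lost when only the arrays of that comparison were fitted (adjusted p = 0.052, same fold change) and with all-probe centring (0.47).

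PSMB5 carries the chymotrypsin-like site that bortezomib blocks. On the PC3 arrays it read 12.33, 12.16 and 12.18 with DMSO and 12.78, 12.74 and 12.89 with Siomycin A at 24 h. At 48 h it read 11.70, 11.80 and 11.82 with DMSO and 12.50, 12.52 and 12.54 with Siomycin A. PSMB5 thus separated the PC3 groups at both times (0.58 ± 0.08, adjusted p = 3.8e-05, and 0.74 ± 0.08, adjusted p = 4.1e-07).

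On the LNCaP arrays PSMB5 read 12.02, 12.02 and 12.01 with DMSO and 12.43, 12.06 and 12.10 with Siomycin A at 24 h. The LNCaP values at 48 h were 11.96, 12.02 and 11.91 with DMSO and 11.75, 11.78 and 11.82 with Siomycin A. The LNCaP groups did not overlap at either time, yet neither difference passed the test (0.18 ± 0.08, adjusted p = 0.14, and -0.18 ± 0.08, adjusted p = 0.11). The other catalytic subunits PSMB6, with the caspase-like site, and PSMB7, with the trypsin-like site, rose in PC3 at 24 h by 0.54 ± 0.06 and 0.66 ± 0.06. Both fell in LNCaP at 48 h, with log2 fold changes of -0.30 ± 0.06 and -0.17 ± 0.06, after PSMB7 had risen at 24 h (0.27 ± 0.06). In LNCaP the PSMB7 call was lost in 8 alternatives at 48 h and in 3 at 24 h. PSMB3, whose promoter stretch is shown above, rose in PC3 by 0.69 ± 0.07 and 0.95 ± 0.07 and fell in LNCaP at 48 h (-0.31 ± 0.07).

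**Figure D3:**
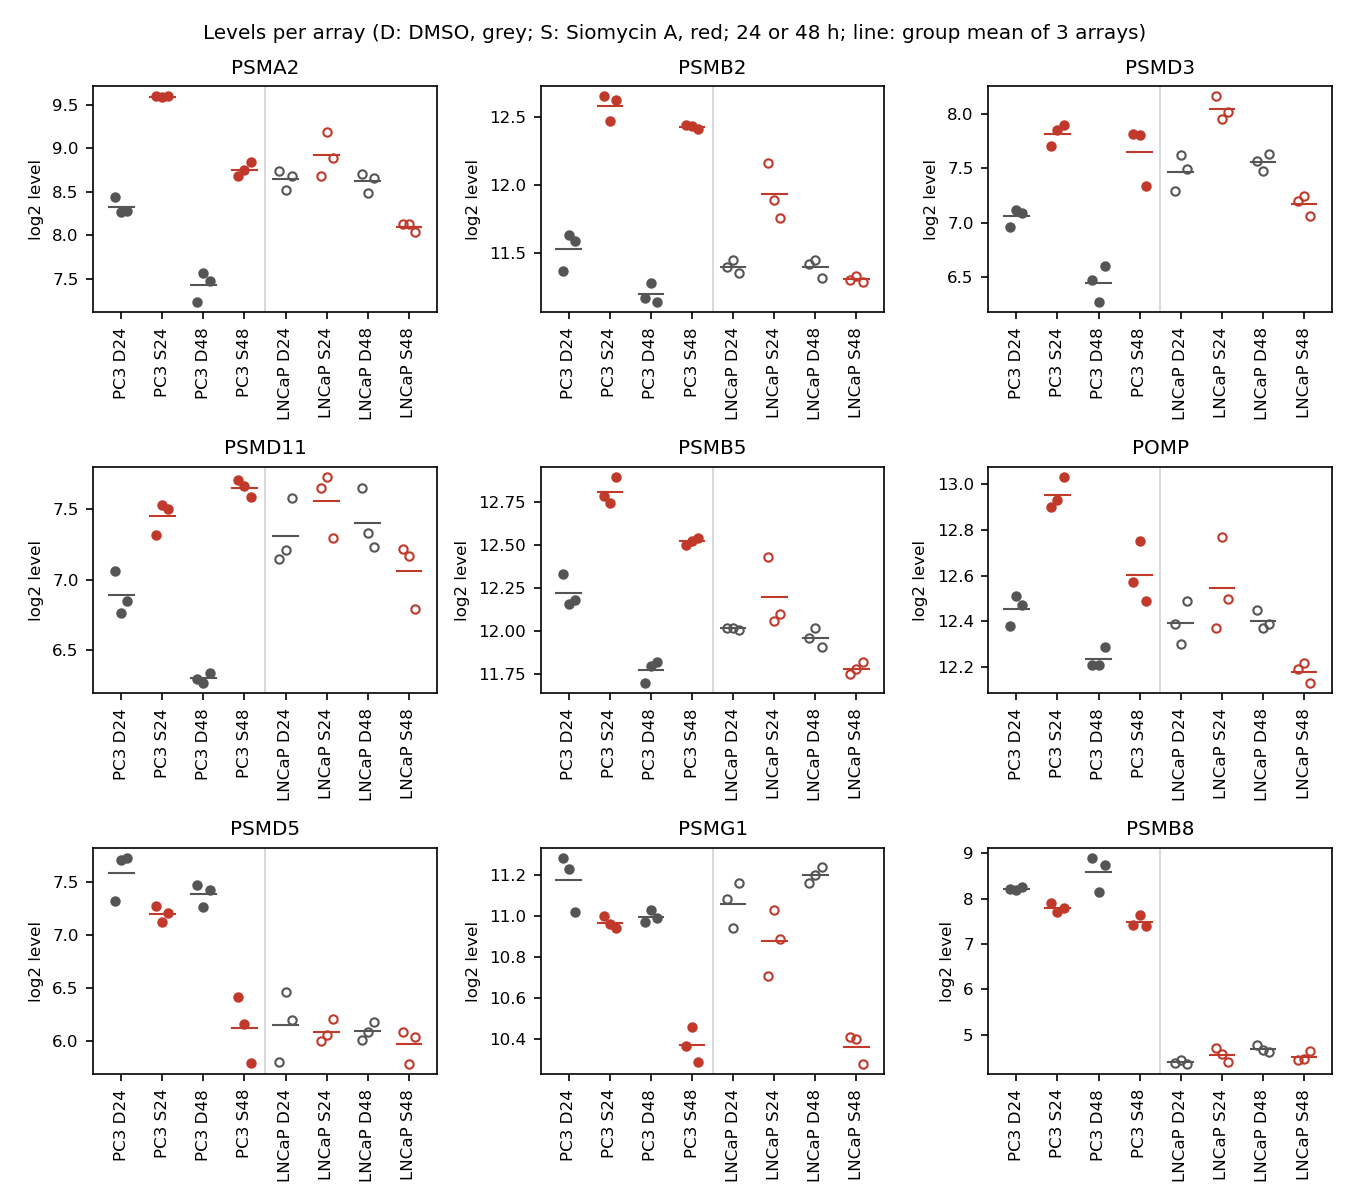
Level of 9 proteasome genes on each array (points; log2 intensity, with an own axis per gene) in the 8 groups, with DMSO in grey, Siomycin A in red and a line at the mean of 3 arrays. PSMA2, PSMB2, PSMD3 and PSMD11 are higher with Siomycin A in PC3 at both times, PSMD5 and PSMG1 are lowest in PC3 with Siomycin A at 48 h among the PC3 groups, and PSMB8 lies near 4.5 in every LNCaP group.

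The ATPases of the 19S base, which unfold the substrate, rose in PC3 in 5 of 5 cases at 24 h and 4 of 5 at 48 h. The PC3 24 h call of PSMC2 (0.23 ± 0.08, adjusted p = 0.038) was lost in 10 alternatives. PSMC4 had the highest log2 fold change of the ATPases in all 4 comparisons. At 24 h its PC3 arrays read 9.97, 9.69 and 9.69 with DMSO and 10.60, 11.07 and 10.94 with Siomycin A, and its LNCaP arrays read 9.08, 9.77 and 9.66 with DMSO and 10.79, 10.20 and 9.98 with Siomycin A. The treated arrays were higher in both lines, with replicates 1 in LNCaP lying farthest from the others of their groups. PSMC4 rose by 1.09 ± 0.19 in PC3, with an adjusted p of 0.00033, and by 0.82 ± 0.19 in LNCaP, with 0.0042. The LNCaP call was lost when only the arrays of that comparison were fitted.

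At 48 h PSMC4 read 9.47, 9.49 and 9.32 with DMSO and 10.07, 10.20 and 10.05 with Siomycin A in PC3 (0.68 ± 0.19, adjusted p = 0.0068). In LNCaP at 48 h it read 9.04, 8.94 and 8.79 with DMSO and 9.14, 9.37 and 9.70 with Siomycin A, all higher, and the difference of 0.48 ± 0.19 was not called (adjusted p = 0.06). The other ATPases had values below 0 there. PSMC2 and PSMC3 fell in LNCaP at 48 h (-0.31 ± 0.08 and -0.68 ± 0.08), and PSMC1 and PSMC6 were -0.12 ± 0.06 and -0.01 ± 0.08.

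Of the 12 non-ATPase subunits of the 19S regulator, 10 rose in PC3 at each time, with medians of 0.56 and 0.67. PSMD11, a lid subunit that stabilises the joint between core and regulator, had the highest fold change of the 44 in PC3 at 48 h. It read 6.29, 6.26 and 6.33 with DMSO and 7.71, 7.67 and 7.59 with Siomycin A at 48 h, and 7.06, 6.76 and 6.85 with DMSO and 7.32, 7.53 and 7.50 with Siomycin A at 24 h. The groups were apart at both times, by 1.37 ± 0.14 (adjusted p = 1.1e-07) and 0.56 ± 0.14 (adjusted p = 0.0062). In LNCaP PSMD11 was 0.25 ± 0.14 at 24 h and -0.34 ± 0.14 at 48 h, neither of which passed the test.

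PSMD3, another lid subunit, rose in PC3 by 0.76 ± 0.12 at 24 h and 1.20 ± 0.12 at 48 h. Its LNCaP levels at 24 h were 7.29, 7.62 and 7.49 with DMSO and 8.16, 7.95 and 8.02 with Siomycin A. At 48 h they were 7.57, 7.47 and 7.63 with DMSO and 7.20, 7.24 and 7.06 with Siomycin A. In LNCaP the treated arrays were thus all higher at 24 h (0.58 ± 0.12, adjusted p = 0.0014) and all lower at 48 h (-0.39 ± 0.12, adjusted p = 0.013). The 48 h call was lost in 4 alternatives. Among them were leaving out DMSO replicate 3 (-0.35) or Siomycin A replicate 3 (-0.34), and all-probe centring (-0.42). Its promoter stretch carries the antioxidant letters close to the start of the gene.

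Of the scaffold subunits, PSMD1 rose in PC3 by 0.64 ± 0.13 at 24 h and 0.92 ± 0.13 at 48 h. PSMD2 rose there by 0.56 ± 0.08 and 0.50 ± 0.08. In LNCaP at 48 h PSMD1 and PSMD2 fell, with -0.43 ± 0.13 and -0.32 ± 0.08. The ubiquitin receptors PSMD4 and ADRM1 rose in PC3 at 24 h (0.49 ± 0.08 and 0.43 ± 0.10) and in LNCaP at 24 h (0.41 ± 0.08 and 0.40 ± 0.10), and ADRM1 fell in LNCaP at 48 h (-0.26 ± 0.10). The LNCaP 48 h call of ADRM1 was lost in 8 alternatives. The deubiquitinase PSMD14, which cleaves the ubiquitin chain from the substrate, rose in PC3 by 0.87 ± 0.13 and 0.77 ± 0.13 and was not called in LNCaP.

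While 2.12% of all genes fell in all 4 comparisons, a single gene of the 44 did so, a similar share. This gene was UCHL5, the other deubiquitinase of the 19S regulator, which docks on ADRM1. In LNCaP it read 9.99, 9.88 and 9.95 with DMSO and 8.95, 9.06 and 9.17 with Siomycin A at 48 h. The LNCaP arrays at 24 h read 9.85, 9.79 and 10.00 with DMSO and 9.19, 9.66 and 9.43 with Siomycin A. All treated arrays were lower, with a log2 fold change of -0.88 ± 0.11 at 48 h, for which the adjusted p was 2.2e-06, and -0.46 ± 0.11 at 24 h, for which it was 0.0047. In PC3 UCHL5 was -0.37 ± 0.11 at 24 h, with an adjusted p of 0.018, and -0.46 ± 0.11 at 48 h, with 0.0017, while ADRM1 rose at both times. The 24 h calls of UCHL5 were lost in PC3 with median centring (-0.40), all-probe centring (-0.37) and without replicate 3 of either group (-0.33 and -0.34), and in LNCaP when only the arrays of that comparison were fitted (-0.46) or with all-probe centring (-0.51).

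PSMD5 binds the 19S base during assembly and is absent from the finished proteasome, and it is counted here among the non-ATPase subunits. It read 7.47, 7.26 and 7.42 with DMSO and 6.41, 6.16 and 5.79 with Siomycin A in PC3 at 48 h. At 24 h the PC3 levels were 7.32, 7.70 and 7.72 with DMSO and 7.27, 7.12 and 7.20 with Siomycin A. The treated arrays were lower at both times, and the difference passed the test at 48 h (-1.27 ± 0.16, adjusted p = 1.4e-06) and not at 24 h (-0.38 ± 0.16, adjusted p = 0.095). In LNCaP PSMD5 was -0.07 ± 0.16 and -0.12 ± 0.16, from levels of 6.15 ± 0.33 and 6.09 ± 0.09 in the DMSO groups.

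The immunoproteasome subunits did not rise in any comparison, nor did 62.9% of all genes. PSMB8, the counterpart of PSMB5, read 8.21, 8.18 and 8.25 with DMSO and 7.90, 7.70 and 7.79 with Siomycin A in PC3 at 24 h. At 48 h it read 8.89, 8.15 and 8.74 with DMSO and 7.42, 7.64 and 7.39 with Siomycin A. The treated PC3 arrays were lower at both times, with -0.42 ± 0.14 (adjusted p = 0.031) and -1.11 ± 0.14 (adjusted p = 1.1e-06). The 24 h call of PSMB8 was lost in 7 of the alternatives, among them leaving out any of the 3 DMSO arrays or Siomycin A replicate 2 or 3, and the mean over its probes (-0.17). The mean moved it by over 1.5 times.

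On the 12 LNCaP arrays PSMB8 lay between 4.35 and 4.78 and was not above background on any of them. The probe thus passed the filter on dim signals through the PC3 arrays alone, so the line difference is given without a test. The PSMB8 level in PC3 DMSO arrays was at least 10.83-fold higher than in LNCaP at 24 h and at least 13.91-fold higher at 48 h. These are lower bounds, computed against the dimmest signals that counted as above background on the LNCaP arrays or the probe's own signal where that was higher.

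PSMB10, the counterpart of PSMB7, was detected in both lines. It read 10.51, 10.61 and 10.50 with DMSO and 10.20, 9.89 and 10.07 with Siomycin A in PC3 at 24 h, and 10.77, 10.59 and 10.64 with DMSO and 10.65, 10.68 and 10.52 with Siomycin A at 48 h. The PC3 groups were apart at 24 h (-0.49 ± 0.09, adjusted p = 0.00047) and overlapped at 48 h (-0.05 ± 0.09, adjusted p = 0.69).

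In LNCaP PSMB10 read 11.62, 11.61 and 11.49 with DMSO and 11.28, 11.16 and 11.41 with Siomycin A at 24 h, and 11.77, 11.68 and 11.64 with DMSO and 11.04, 11.06 and 10.87 with Siomycin A at 48 h. All treated LNCaP arrays were lower than all controls, with -0.29 ± 0.09 (adjusted p = 0.025) and -0.71 ± 0.09 (adjusted p = 2.9e-06). The 24 h call of PSMB10 in LNCaP was lost with all-probe centring (-0.39), when only the arrays of that comparison were fitted, and without DMSO replicate 1 (-0.27), DMSO replicate 2 (-0.27) or Siomycin A replicate 2 (-0.23).

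PSMB9, the counterpart of PSMB6, stayed near background. It read 5.11, 5.03 and 5.53 with DMSO and 5.06, 5.39 and 5.49 with Siomycin A in PC3 at 24 h, and 5.26, 5.33 and 5.06 with DMSO and 5.58, 4.91 and 5.09 with Siomycin A in PC3 at 48 h. In LNCaP the values were 4.79, 5.36 and 5.19 with DMSO and 4.61, 5.35 and 5.48 with Siomycin A at 24 h, and 5.47, 5.10 and 4.65 with DMSO and 5.13, 5.20 and 4.97 with Siomycin A at 48 h. For this probe, the brightest of PSMB9, the groups overlapped everywhere and no call was made. A dimmer second probe, with a mean level of 4.77, was lower in PC3 at 24 h (-0.44 ± 0.13, adjusted p = 0.022) and again in PC3 at 48 h (-0.88 ± 0.13, adjusted p = 1.3e-05). It was not called in LNCaP. The PC3 result for PSMB9 therefore depended on the probe.

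Of the activators, PSME4, known as PA200 and located in the nucleus, rose in PC3 at both times (0.62 ± 0.08 and 0.60 ± 0.08) and was 0.19 ± 0.08 and -0.11 ± 0.08 in LNCaP. PSME2, which forms the interferon-induced ring with PSME1, fell in PC3 at both times (-0.38 ± 0.08 and -0.25 ± 0.08) and was not called in LNCaP. PSME1 read 12.39, 12.25 and 12.52 with DMSO and 11.76, 11.69 and 11.88 with Siomycin A in PC3 at 48 h. It read 11.61, 11.49 and 11.49 with DMSO and 11.91, 11.86 and 11.79 with Siomycin A in LNCaP at 48 h. The treated arrays were lower in PC3 (-0.61 ± 0.08, adjusted p = 2.1e-06) and higher in LNCaP (0.32 ± 0.08, adjusted p = 0.0025). The LNCaP call was lost with median centring (0.18), all-probe centring (0.19) and the mean over both probes (0.11). A dimmer second probe of PSME1, with a mean level of 5.06, gave 1.37 ± 0.21 in PC3 at 48 h and -0.11 ± 0.21 in LNCaP at 48 h, and the mean of both probes gave 0.38 in PC3 at 48 h (adjusted p = 0.013). The direction for PSME1 in PC3 at 48 h therefore depended on the probe. The nuclear activator PSME3 fell in LNCaP at 48 h (-0.29 ± 0.10), a call lost in 5 alternatives.

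Of the 7 assembly factors, 1 rose and 1 fell in PC3 at 24 h, 2 rose and 2 fell in PC3 at 48 h, 1 rose and 2 fell in LNCaP at 24 h, and 1 rose and 4 fell in LNCaP at 48 h, with medians of -0.19, -0.01, -0.12 and -0.28. Over all genes 11.04% rose and 11.9% fell in PC3 at 24 h, and 19.5% and 26.3% at 48 h. In LNCaP 10.5% of all genes rose and 10.4% fell at 24 h, and 18.96% and 18.4% at 48 h. The PC3 counts of the assembly factors thus lay near those of all genes. POMP, which completes the core and is then degraded by it, read 12.38, 12.51 and 12.47 with DMSO and 12.90, 12.93 and 13.03 with Siomycin A in PC3 at 24 h, and 12.21, 12.21 and 12.29 with DMSO and 12.57, 12.75 and 12.49 with Siomycin A at 48 h. POMP rose at both times, by 0.50 ± 0.09 (adjusted p = 0.00042) and 0.37 ± 0.09 (adjusted p = 0.0025). In LNCaP POMP read 12.39, 12.30 and 12.49 with DMSO and 12.37, 12.77 and 12.50 with Siomycin A at 24 h, and 12.45, 12.37 and 12.39 with DMSO and 12.19, 12.22 and 12.13 with Siomycin A at 48 h. The LNCaP arrays overlapped at 24 h and lay all lower at 48 h, and neither difference passed the test (0.16 ± 0.09 and -0.22 ± 0.09).

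PSMG1 to PSMG4 are the chaperones that form pairs to build the alpha ring. None of them rose in any comparison, nor did 62.9% of all genes. PSMG1 read 10.97, 11.03 and 10.99 with DMSO and 10.37, 10.46 and 10.29 with Siomycin A in PC3 at 48 h, and 11.16, 11.20 and 11.24 with DMSO and 10.41, 10.40 and 10.28 with Siomycin A in LNCaP at 48 h. The arrays were apart in both lines, with -0.63 ± 0.09 (adjusted p = 5.7e-06) and -0.83 ± 0.09 (adjusted p = 2.2e-07). A second probe of PSMG1 gave -0.91 ± 0.13 and -0.90 ± 0.13. At 24 h PSMG1 was -0.21 ± 0.09 in PC3 and -0.18 ± 0.09 in LNCaP, neither called, while the second probe was lower in PC3 at 24 h (-0.41 ± 0.13).

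PSMG3 read 8.60, 8.43 and 8.20 with DMSO and 8.14, 7.51 and 7.94 with Siomycin A in LNCaP at 24 h, and 8.40, 8.29 and 8.27 with DMSO and 7.78, 7.41 and 7.64 with Siomycin A at 48 h. All treated LNCaP arrays were lower, with -0.55 ± 0.14 (adjusted p = 0.0059) and -0.71 ± 0.14 (adjusted p = 0.00031). PSMG4 in LNCaP read 9.67, 9.64 and 9.82 with DMSO and 9.21, 9.10 and 9.26 with Siomycin A at 24 h, and 9.54, 9.44 and 9.53 with DMSO and 8.85, 8.75 and 8.79 with Siomycin A at 48 h. Its groups were also apart, with -0.52 ± 0.08 (adjusted p = 0.0001) and -0.71 ± 0.08 (adjusted p = 1e-06), and it fell in PC3 at 24 h (-0.41 ± 0.08) but was -0.01 ± 0.08 at 48 h. PSMG2 fell in LNCaP at 48 h (-0.28 ± 0.09).

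The chaperones of the 19S base divided. PSMD10, known as gankyrin, read 11.43, 11.43 and 11.38 with DMSO and 11.69, 11.73 and 11.75 with Siomycin A in LNCaP at 48 h, a rise of 0.31 ± 0.06 (adjusted p = 0.0004), and it rose by 0.24 ± 0.06 at 24 h. Its rise in PC3 at 48 h was small (0.15 ± 0.06, adjusted p = 0.048) and lost its call in 8 alternatives, among them all-probe centring (0.02). PSMD9 fell in PC3 at 48 h (-0.59 ± 0.20, adjusted p = 0.02), a call lost without Siomycin A replicate 1 (-0.32), without DMSO replicate 1 (-0.55) or 3 (-0.54), and when only the arrays of that comparison were fitted. In LNCaP PSMD9 was above background on 1 of 12 arrays, and PC3 DMSO arrays were at least 5.54-fold higher at 24 h and at least 4.52-fold higher at 48 h.

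The difference in response between the lines was tested in the same fit. At 24 h the Siomycin A effect was lower in LNCaP than in PC3 for 15 of the 44 and higher for 2, while 7.49% of all genes were lower and 6.75% higher. These 17 calls became 11 (9 lower, 2 higher) when only the arrays of the contrast were fitted and 1 (1 lower, 0 higher) with all-probe centring. At 48 h it was lower for 31 and higher for 3, while 18.99% of all genes were lower and 24.2% higher. The all-gene count at 48 h, 3232 higher and 2534 lower, became 3349 higher and 1097 lower under all-probe centring, where the proteasome genes had a median of -0.59 instead of -0.65. The genes with a higher effect in LNCaP at 48 h were PSMD5 (1.14 ± 0.22), PSME1 (0.93 ± 0.11) and PSMB8 (0.93 ± 0.19), which fell in PC3. For PSME1 this held for the brighter probe, while the dimmer probe was higher in PC3 (1.37 ± 0.21) and -0.11 ± 0.21 in LNCaP. At 24 h the genes with a higher effect in LNCaP were PSMB8 (0.59 ± 0.19) and PSME2 (0.47 ± 0.11). PSMB8 was below background in LNCaP, so its difference of effects rests on the PC3 arrays.

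PSMA2 had the largest difference of effects among the 44 at each time, -0.99 ± 0.16 at 24 h (adjusted p = 0.00019) and -1.85 ± 0.16 at 48 h, with an adjusted p of 1.2e-08. It was followed at 48 h by PSMD11 (-1.71 ± 0.20, adjusted p = 8.4e-07) and PSMD3 (-1.59 ± 0.17, adjusted p = 2.6e-07), and at 24 h by PSMB3 (-0.62 ± 0.10, adjusted p = 0.00018) and PSMD6 (-0.60 ± 0.14, adjusted p = 0.0055). No assembly factor differed between lines at 24 h, while 7.49% of all genes had a lower effect in LNCaP and 6.75% a higher one. At 48 h POMP, PSMG3 and PSMG4 had lower effects in LNCaP, as did 18.99% of all genes, and PSMG1 did not pass the test.

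As a description, the log2 fold changes of the 44 genes in PC3 and LNCaP had a Pearson r of 0.70 (Spearman 0.63) at 24 h and 0.06 (Spearman -0.04) at 48 h. Within PC3 the 24 h and 48 h values had r = 0.83 (Spearman 0.86), and within LNCaP r = 0.63 (Spearman 0.39). These points are genes that share arrays, not independent replicates. The mean level of a gene and its fold change had r between 0.14 and 0.32 in the 4 comparisons.

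Between 24 h and 48 h, the Siomycin A effect in LNCaP fell for 15 of the 44 and rose for none, while 4.39% of all genes fell and 4.50% rose. PSMD3 (-0.97 ± 0.17, adjusted p = 0.0012), PSMA2 (-0.79 ± 0.16, adjusted p = 0.0032) and PSMD1 (-0.75 ± 0.19, adjusted p = 0.017) led in size. The 15 were 4 standard beta subunits (PSMB2, PSMB3, PSMB6, PSMB7), PSMB10, 3 ATPases (PSMC1, PSMC2, PSMC3), 5 non-ATPases (PSMD1, PSMD2, PSMD3, PSMD4, ADRM1), PSMA2 and PSMG1. The count was 8 when only the arrays of that contrast were fitted and 0 with all-probe centring, where the median was -0.39 instead of -0.35.

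In PC3 the effect was lower at 48 h for 6 of the 44 and higher for 3, while 15.6% of all genes were lower and 9.44% higher. PSMD5 (-0.89 ± 0.22, adjusted p = 0.0058), PSMD11 (0.81 ± 0.20, adjusted p = 0.0049) and PSMB8 (-0.69 ± 0.19, adjusted p = 0.011) had the largest differences. The other calls were PSMB4, PSMC6, PSME1 (by its brighter probe) and PSMG1, lower at 48 h, and PSMB10 and PSMG4, higher. The all-gene count, 1260 higher and 2088 lower, became 265 higher and 2579 lower under all-probe centring.

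**Figure D4:**
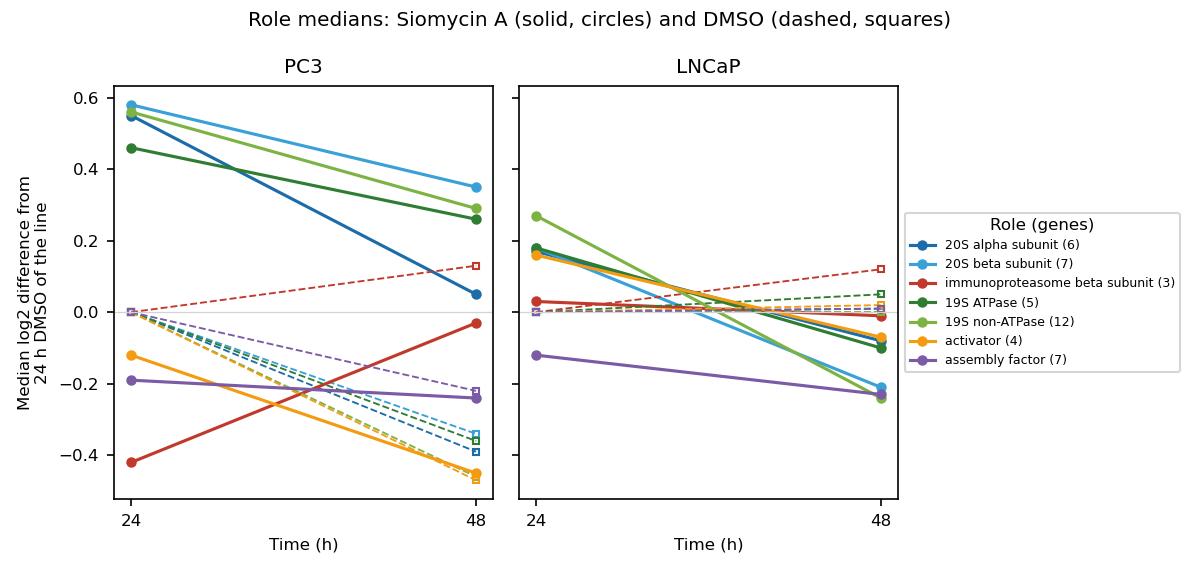
Median log2 difference from the 24 h DMSO mean of the same line, over the genes of each role (number in the legend), at 24 h and 48 h with Siomycin A (solid lines, circles) and DMSO (dashed lines, squares). In PC3 the DMSO medians of the 20S and 19S subunits drop to between -0.34 and -0.46 at 48 h, and in LNCaP the DMSO medians stay between 0.00 and 0.12.

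The DMSO arrays themselves differed between times in PC3. At 48 h 24 of the 44 were lower than at 24 h and 2 were higher, while 13.9% of all genes were lower and 14.4% higher. The all-gene count, 1922 higher and 1852 lower, became 532 higher and 2243 lower under all-probe centring. The median of the proteasome genes was -0.33, and PSMA2 (-0.91 ± 0.11), the activator PSME3 (-0.83 ± 0.10) and PSMD1 (-0.72 ± 0.13) fell most. In LNCaP 0 of the 44 differed between the DMSO times in limma's test, where 0.547% of all genes did. The PC3 48 h effects share these DMSO arrays. Set against the 24 h DMSO arrays instead, the 48 h Siomycin A arrays of PC3 had 16 genes higher and 12 lower, with a median of 0.08, while 20.8% of all genes were higher and 28.01% lower. PSMA2 was then 0.42 ± 0.11, PSMD11 0.77 ± 0.14, PSMB5 0.29 ± 0.08, POMP 0.15 ± 0.09 (adjusted p = 0.2) and PSMD5 -1.46 ± 0.16. The same change of control left LNCaP at 48 h with 2 higher and 18 lower, while 19.4% of all genes were higher and 17.8% lower.

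Between the lines without Siomycin A, 8 of the 44 were higher in LNCaP than in PC3 at 24 h and 20 lower, while 29.5% of all genes were higher and 31.5% lower. At 48 h 18 were higher and 15 lower, while 30.9% of all genes were higher and 31.6% lower. PSMD6, a lid subunit, was higher in LNCaP at both times, with levels of 12.35, 12.37 and 12.42 against 10.35, 10.12 and 10.10 in PC3 at 24 h (2.19 ± 0.10, adjusted p = 5e-14). PSMB10 was higher in LNCaP by 1.03 ± 0.09 at each time, whereas PSMB8 and PSMD9 were higher in PC3 as given above. PSMD5 was higher in PC3, the LNCaP difference being -1.42 ± 0.16 at 24 h and -1.30 ± 0.16 at 48 h, and PSME2 likewise, with -0.85 ± 0.08 and -0.39 ± 0.08.

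Among 21 genes that work with the proteasome, 19 were measured. In PC3 12 rose and 1 fell at 24 h, and 10 rose and 2 fell at 48 h. In LNCaP 5 rose and 0 fell at 24 h, and 4 rose and 3 fell at 48 h. Over all genes 11.04% rose and 11.9% fell in PC3 at 24 h, 19.5% and 26.3% in PC3 at 48 h, 10.5% and 10.4% in LNCaP at 24 h, and 18.96% and 18.4% in LNCaP at 48 h, so the LNCaP 48 h counts lay near those of all genes. The medians of the 19 genes were 0.42, 0.27, 0.15 and 0.14. NFE2L1, the regulator named above, rose in all 4 comparisons, from 8.77 ± 0.03 to 9.36 ± 0.07 in PC3 at 24 h (0.59 ± 0.08, adjusted p = 3e-05), and by 0.27 ± 0.08 in PC3 at 48 h. In LNCaP it rose from 8.53 ± 0.15 to 9.41 ± 0.16 at 24 h (0.88 ± 0.08, adjusted p = 1.2e-07) and from 8.41 ± 0.03 to 9.88 ± 0.04 at 48 h (1.47 ± 0.08, adjusted p = 4.5e-11). The NFE2L1 effect was thus higher in LNCaP than in PC3 at 48 h (1.20 ± 0.12, adjusted p = 8.2e-08), where 31 of the 44 proteasome genes had a lower effect. Its DMSO level in PC3 was also 0.88 ± 0.08 higher at 48 h than at 24 h, while 24 of the 44 were lower. These are RNA levels and do not measure the activity of the NFE2L1 protein. A link between NFE2L1 and the changes of the proteasome genes was not tested.

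ZFAND2A, a stress-induced protein that binds the 19S regulator, rose most of these genes in PC3 at 24 h (1.46 ± 0.09, adjusted p = 1.3e-09), followed by UFD1 (1.02 ± 0.22, adjusted p = 0.0016). VCP, the ATPase that pulls ubiquitylated proteins out of complexes with UFD1 and NPLOC4, rose in PC3 at both times (0.83 ± 0.09 and 0.92 ± 0.09), and TXNL1, a thioredoxin-like protein of the 19S regulator, rose at 48 h (1.18 ± 0.22). In LNCaP at 48 h VCP (-0.33 ± 0.09), UFD1 (-1.05 ± 0.22) and NGLY1 (-0.33 ± 0.10) fell. UFD1 was then above background on 1 of the 3 Siomycin A arrays (5.06 ± 0.55), so the size of its fall is uncertain. ECPAS, a proteasome-binding scaffold, rose in LNCaP at both times (0.49 ± 0.09 and 0.65 ± 0.09). It fell in PC3 at 48 h (-0.34 ± 0.09), as did the ubiquitin ligase UBE3C (-0.96 ± 0.07), and PAAF1, another chaperone of the 19S base, fell in PC3 at 24 h (-0.26 ± 0.09).

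Of 8 antigen presentation genes regulated with the immunoproteasome, 6 were measured. In PC3 0 rose and 1 fell at each time by limma's test, while 11.9% of all genes fell at 24 h and 26.3% at 48 h. The gene that fell was IRF1 (-0.49 ± 0.14 and -0.82 ± 0.14), the interferon-responsive factor that activates PSMB8 and PSMB9. In LNCaP IRF1 rose at 24 h (0.42 ± 0.14) and at 48 h (1.73 ± 0.14, adjusted p = 5.6e-09). Its LNCaP DMSO level was near background, with 1 of 3 arrays above it at each time (5.06 ± 0.15 and 5.14 ± 0.02), so the size of these rises is uncertain. All 3 Siomycin A arrays were above background at each time. At 48 h B2M (0.54 ± 0.08), TAPBP (0.63 ± 0.11) and TAP2 (0.44 ± 0.14), which serve peptide loading on MHC class I, rose in LNCaP as well. PSMB8 and PSMB9 were then at 4.51 ± 0.11 and 5.10, near background, and PSMB10 fell.

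For the 18 genes with more than 1 kept probe, all kept probes gave the same call in 11, 10, 13 and 12 genes in PC3 at 24 h, PC3 at 48 h, LNCaP at 24 h and LNCaP at 48 h, and opposite calls in PSME1 in PC3 at 48 h alone. The 3 probes of PSMC4 rose in PC3 at 24 h by 1.09, 1.10 and 1.13 and in LNCaP at 24 h by 0.82, 0.58 and 0.59.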

How the data were processed

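Total RNA of PC3 and LNCaP cultures was hybridised to Illumina bead arrays, 24 in all, per the labels' protocols. Groups and replicates were taken from the sample labels and each data column from its name, with 0 value columns left without a sample. The deposited intensities and detection p-values, per the file headers, covered 47318 probes and were not normalized. Per the submitters' processing notes, lumi produced the authors' deposited log2 values; its version and the genome build are not given in the sources used here. They differed by at most 5.12e-09 from logged, quantile normalized intensities without background correction.

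For each array, probes whose detection p exceeded 0.9 were taken as background, and their median signal as its centre. Signals were corrected with the normexp model (offset 16, which understates changes of dim probes), logged and quantile normalized. Probes were kept if at least 3 arrays gave a signal over that centre with a detection p below 0.01 (25215 probes), and a gene was given by its brightest kept probe. Genes were named through the platform's probe list, where 30119 probes had a name, 8 of them several genes. limma 3.58.1 (R 4.3.3) fitted 8 group means over 24 arrays (16 residual degrees of freedom), with 2-sided tests and Benjamini-Hochberg adjustment over 13344 genes. The script was tested on simulated data. The number of arrays limits the precision.

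The gene list, roles, companion lists, motifs and tests were chosen with earlier results of these data known. Any listed gene could be named. Values per array were given for the 3 called genes with the largest change and the called gene with the largest fall in each comparison, and for PSMB8, PSMB9, PSMB10, PSMB5 and POMP, with other genes added after their values were seen. Same-numbered replicates did not deviate together (r from -0.15 to 0.04), so no pairing was used. Alternatives covered background correction, the authors' table, centring, filters, probe choice, arrays fitted, a replicate block, single arrays left out and the 24 h control.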

Additional observations from a re-analysis of the deposited data

Results flagged for a closer look

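Each of the following is a difference between 2 Siomycin A effects that passed limma's test of the difference itself, in log2 units, and its cause was not tested. The effect at 24 h was lower in LNCaP than in PC3 for PSMA2 (-0.99), PSMB3 (-0.62) and PSMD6 (-0.60), and PC3 rose in all 3 genes. At 48 h it was lower in LNCaP for PSMA2 (-1.85), PSMD11 (-1.71) and PSMD3 (-1.59), and of these PSMA2 and PSMD3 had opposite called directions in the lines. In PC3 the effect was lower at 48 h than at 24 h for PSMD5 (-0.89) and PSMB8 (-0.69) and higher for PSMD11 (0.81). In LNCaP it was lower at 48 h for PSMD3 (-0.97), PSMA2 (-0.79) and PSMD1 (-0.75), and PSMD3 alone of these 3 changed from a called rise to a called fall. The LNCaP 48 h fall of PSMD3 lost its call in 4 alternatives.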

How the results depend on the processing

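The total of called proteasome genes in PC3 stayed within 1.5 times under all alternatives but all-probe centring, though against the 24 h DMSO arrays the 48 h split changed from 28 higher and 7 lower to 16 higher and 12 lower. With no background correction and with the authors' table the PC3 24 h median became 0.44. Median centring gave medians of 0.46 and 0.63 in PC3 and of 0.07 and -0.31 in LNCaP, 9 calls in LNCaP at 24 h, and turned the median of the PC3 time difference to 0.16 and of the DMSO line difference at 24 h to 0.07. Centring over all probes, added after the data had been seen, moved the median of all genes. For the PC3 time difference that median became -0.24 instead of -0.04. It gave 20 calls (20 higher, 0 lower; median 0.49) in PC3 at 24 h, 25 (17 higher, 8 lower) in PC3 at 48 h, 4 in LNCaP at 24 h, 9 (0 higher, 9 lower; median -0.30) in LNCaP at 48 h, 1 for the line difference at 24 h, 3 and 0 for the time differences in PC3 and LNCaP, 18 for the DMSO line difference at 24 h, and a median of -0.03 for DMSO in LNCaP.

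Keeping probes above background on all 24 arrays gave a PC3 24 h median of 0.50, and the mean over a gene's probes gave 0.51 (PC3 24 h), 0.46 (PC3 48 h) and 0.38 for PSME1 in PC3 at 48 h. Fitting only the arrays of the contrast gave 2 calls in LNCaP at 24 h, 11 for the line difference at 24 h and 8 for the time difference in LNCaP. Against the 24 h DMSO arrays the PC3 48 h median was 0.08, and PSMA5 (-0.02), PSMC2 (-0.27, adjusted p = 0.0062) and PSMD10 (-0.11) turned negative. The replicate block gave 34 and 35 calls in PC3 and 15 and 20 in LNCaP at 24 h and 48 h, and since the numbers do not pair the arrays it was not used. Causes were not tested.

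Leaving out 1 array at a time gave 30 to 33 calls in PC3 at 24 h (median 0.45 to 0.50), 33 to 35 in PC3 at 48 h (0.35 to 0.38), 13 to 21 in LNCaP at 24 h (0.10 to 0.18) and 15 to 19 in LNCaP at 48 h (-0.21 to -0.18). The highest count in LNCaP at 24 h came without Siomycin A replicate 1. For the PC3 time difference the median ran from -0.07 to 0.01, the latter without PC3 DMSO 48 h replicate 3. Of the called genes, 19 of 34, 17 of 35, 2 of 15 and 8 of 22 kept their call in every alternative. The files name no slide, so a slide block was not run. Of 2892 recomputed values, 65 that were not called in either fit changed sign.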
